A study of Mus musculus with 9 samples.

Results

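The plasminogen activator system was described here through 4 listed genes: Plau, Plat, Plaur and Serpine2. Members were the rows of the deposited table whose platform gene symbol is one of these names. 3 of the 4 were found, each with 1 transcript cluster, among 19505 genes in all. Serpine2 was not named in the probe annotation used here, and its level was not analysed here. White adipose tissue was profiled on 9 arrays of the Clariom S mouse type, each with its own sample, in 3 groups of 3. Lean controls were male C57BL/6JHamSlc-+/+ mice on vehicle. Obese controls were male C57BL/6JHamSlc-ob/ob mice, which lack functional leptin, also on vehicle. The treated group held ob/ob males given VE (rice bean, Vigna umbellata, extract) at 100 mg/kg by gavage for 6 weeks. All mice were obtained at 6 weeks of age and ate standard chow until day 42. There was no lean group on VE, so any VE difference applies to leptin-deficient fat. The series text gives 3 mice per group but does not name the fat depot.

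Plau encodes urokinase and Plat encodes tissue plasminogen activator. Both are serine proteases that cut plasminogen, the circulating proenzyme, into plasmin, which dissolves fibrin and cleaves matrix proteins. Plaur encodes the urokinase receptor, a protein held in the outer membrane by a lipid anchor, which keeps urokinase and its activity at the cell surface of macrophages and other migrating cells. Serpine2 encodes protease nexin 1, a serpin that blocks thrombin, urokinase and plasmin. In adipose tissue the system is known for its part in matrix remodelling and in the prothrombotic state of obesity.

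The Plaur promoter is shown because Plaur is the member whose level differed between lean and obese fat. It was the only 1 of the 3 measured members with an entry in the RefSeq promoter table (GRCm38.p6). The window holds the 250 bases before the gene's start, chr7:24462233-24462482 on the plus strand, 5′ to 3′. Capitals mark the 1 match to GAGGAAG, an ETS core of the kind bound by the myeloid factor PU.1, and the 1 match to TGACTCA, the site of AP-1 factors.

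Plaur: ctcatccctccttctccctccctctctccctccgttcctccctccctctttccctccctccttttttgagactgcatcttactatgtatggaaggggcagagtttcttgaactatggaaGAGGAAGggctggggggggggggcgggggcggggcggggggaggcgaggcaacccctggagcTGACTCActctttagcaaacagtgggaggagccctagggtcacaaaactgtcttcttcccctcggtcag

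The GAGGAAG match lies 131 to 125 bases before the start and the TGACTCA match 69 to 63 bases before it. Between them are 3 matches to the GC box GGGCGG, the last 2 of which share a base. These motifs were chosen after the sequence was read and were searched on both strands. Among 32851 promoter windows of 250 bases, TGACTCA was present in 4.46%, GAGGAAG in 10.6% and GGGCGG in 32.7%. A match describes the letters only.

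The tissue carried strong adipocyte transcripts on every array: the mean log2 level of 10 adipocyte markers, all above the array median on all arrays, was 16.14 to 17.41 in lean, 17.09 to 17.30 in ob/ob vehicle and 17.24 to 17.47 in VE fat. The wild type arrays differed among themselves. The mean of 17 epithelium markers was 9.58, 10.13 and 7.92 on wild type arrays 1, 2 and 3, against 4.53 to 5.08 on the 6 ob/ob arrays. The mean of 8 smooth muscle markers was 11.81, 15.65 and 9.21 on the wild type arrays and 8.86 to 9.33 on the ob/ob arrays. Wild type array 3 differed too. Its epithelium mean lay above that of every ob/ob array, and the mean of 14 male reproductive tract markers was 5.55, 6.38 and 7.03 on wild type arrays 1, 2 and 3 against 4.29 to 5.14 on the ob/ob arrays. The seminal vesicle secretion genes Svs2, Svs4 and Svs5 read 11.74, 10.67 and 12.17 on wild type array 3, and Adam7, a gene of the epididymis, read 17.10 on wild type array 2. No lean array was therefore free of markers of other tissues. Values without wild type arrays 1 and 2, and without array 3, are given for the members. For other named genes they are given where they end a call or move a called difference by over 1.5 times on the log2 scale. Differences that were not called can also change in size or sign with the lean arrays used. Without arrays 1 and 2 only 1 lean array is left, so calls from that fit do not measure the spread among lean mice. In a test with 3 arrays against 3 an exact permutation p cannot fall below 0.1, so calls use limma's moderated test over all 19572 annotated clusters, with a Benjamini-Hochberg adjusted p under 0.05.

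**Figure D1:**
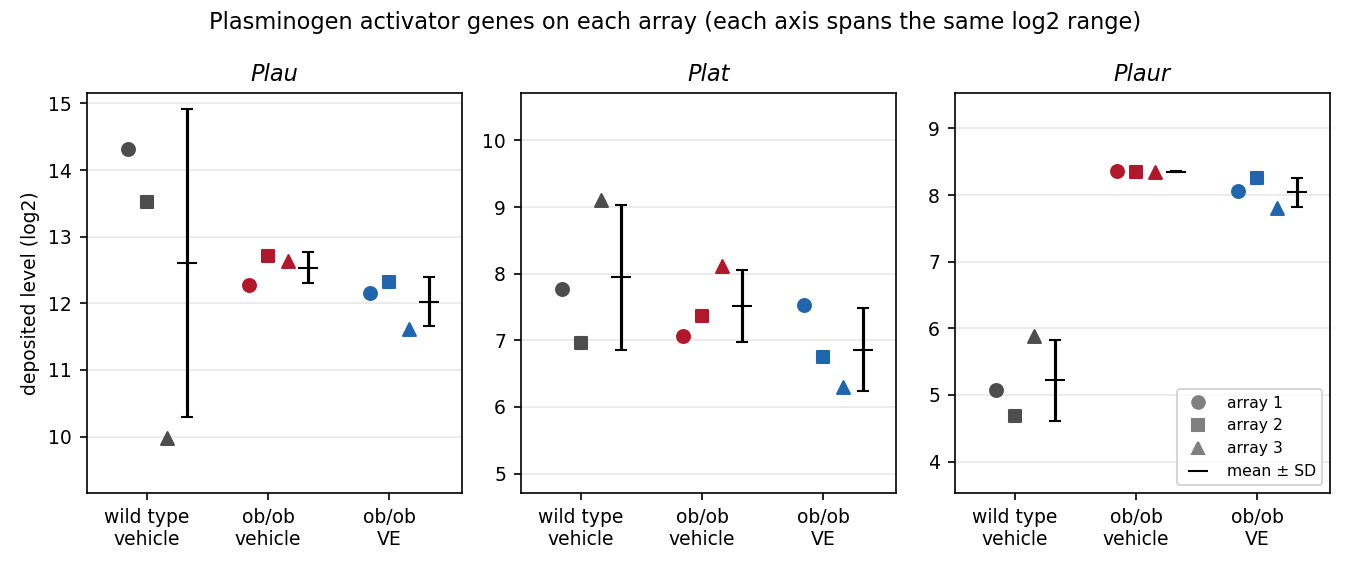
Log2 level of Plau, Plat and Plaur on each of the 9 arrays (points; shape gives the array number), with the mean and SD of each group (black). Plaur is at 4.69 to 5.88 in lean fat and at 7.81 to 8.36 on the 6 ob/ob arrays, while Plau spreads from 9.98 to 14.32 on the lean arrays.

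Plaur, the urokinase receptor, was higher in obese than in lean fat. It read 5.08, 4.69 and 5.88 (log2) on the wild type arrays, 8.36, 8.35 and 8.35 in untreated ob/ob mice, and 8.06, 8.25 and 7.81 after VE. Every ob/ob array, with or without VE, lay above every wild type array, and all 3 wild type readings were below the median of their own array, which was 6.23 to 6.26. Lean mice averaged 5.22 ± 0.61 (SD, n = 3) and untreated ob/ob mice 8.35 ± 0.0058. The difference of 3.14 ± 0.30 (log2, SE), or 8.79-fold, passed limma's test (adjusted p = 0.000127; 95% interval 2.47 to 3.81). Between VE and wild type mice the difference was 2.82 ± 0.30, or 7.08-fold (limma adjusted p = 0.000223), with a VE mean of 8.04 ± 0.22 (SD, n = 3). Both of these comparisons use the same wild type arrays.

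Plaur was called in both of them with any single array left out, and without wild type arrays 1 and 2 it stood at 2.47 ± 0.30 above the remaining lean array in ob/ob vehicle mice (limma adjusted p = 0.000739). The single lean array left in that fit is assumed to vary like the other groups. Array 3, the lean array with the highest Plaur level, was also the lean array with the highest mean of 18 macrophage markers: that mean was 7.53, 7.80 and 8.75 on wild type arrays 1, 2 and 3. It was 12.51 to 12.71 in ob/ob vehicle and 12.39 to 13.04 in VE fat, and 15 of the 18 macrophage markers were higher in untreated ob/ob than in lean mice, 0 were lower and 3 did not pass. Between lean arrays 1 and 2 the order was the reverse, with Plaur lower and the marker mean higher on array 2. Both were lowest on array 3 of the VE arrays, but the marker mean was highest on array 1 (13.04) and Plaur on array 2 (8.25). Neutrophils also carry this receptor; 1 of 10 neutrophil markers was higher and the list's mean stayed between 4.67 and 5.18 on all 9 arrays, below the array medians. The part of macrophage number in the Plaur difference was not tested. In whole tissue, more cells of a type and more RNA per cell cannot be told apart.

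Plau, the urokinase protease, had no stable difference between lean and obese fat. It read 14.32, 13.52 and 9.98 on the wild type arrays, 12.27, 12.71 and 12.63 in untreated ob/ob mice, and 12.15, 12.32 and 11.61 after VE. The lean arrays lay on both sides of the obese ones: arrays 1 and 2 were above all 6 ob/ob arrays and array 3 was below all of them. The lean arrays spanned 4.34 log2 units, against 0.44 in ob/ob vehicle and 0.71 in VE fat. Lean mice averaged 12.61 ± 2.31 (SD, n = 3), untreated ob/ob mice 12.54 ± 0.23 and VE mice 12.03 ± 0.37. The ob/ob vehicle difference from wild type was −0.07 ± 0.88 (log2, SE; limma adjusted p = 0.97), with a 95% interval of −2.03 to 1.89 that leaves room for a change in either direction.

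The sign of the Plau difference changed with the lean arrays used, each of which carried markers of other tissues. Against wild type array 3 alone, Plau was higher in ob/ob vehicle mice by 2.56 and in VE mice by 2.05. That fit holds 1 lean array and cannot measure the wide spread of Plau among lean mice. Without that array, Plau was lower, at −1.38 ± 0.33 in ob/ob vehicle (limma adjusted p = 0.0158) and −1.89 ± 0.33 in VE mice (adjusted p = 0.00253). Plau was highest on the 2 lean arrays that carried the highest epithelium and smooth muscle means given above, where the epithelial cadherin Cdh1 read 13.32 and 14.09 against 9.90 on array 3. The part of those cells in the lean Plau signal was not tested. On the 6 ob/ob arrays Cdh1 averaged 5.19 in ob/ob vehicle and 5.32 in VE mice, and Plau read 11.61 to 12.71.

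Plat, the tissue plasminogen activator, overlapped between all groups. It read 7.77, 6.96 and 9.11 on the wild type arrays, 7.06, 7.37 and 8.12 in untreated ob/ob mice, and 7.53, 6.75 and 6.30 after VE. Its group means fell in the order wild type (7.95 ± 1.09, SD, n = 3), ob/ob vehicle (7.52 ± 0.55) and VE (6.86 ± 0.62), but neighbours in that order did not differ beyond their spread. The ob/ob vehicle difference from wild type was −0.43 ± 0.53 (log2, SE; limma adjusted p = 0.658; 95% interval −1.62 to 0.76). The VE difference from wild type was −1.09 ± 0.53 (limma adjusted p = 0.181; 95% interval −2.27 to 0.10).

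Wild type array 3 carried the highest Plat reading and the lowest Plau reading of the 9 arrays. Without it the ob/ob vehicle difference of Plat was 0.15 ± 0.44 (limma adjusted p = 0.858). Against it alone, the difference of Plat was −2.25 in VE mice and −1.59 in ob/ob vehicle mice, with no measure of the spread among lean mice. Plat is made by endothelial cells among others. The mean of 11 endothelium markers was 9.73, 8.54 and 10.17 on the wild type arrays, 9.94, 9.56 and 9.51 in untreated ob/ob mice and 9.19, 9.98 and 9.48 after VE. Its order matched that of Plat on the lean arrays, was the reverse in untreated ob/ob mice, and after VE was lowest on array 1, where Plat was highest. Of these 11 markers, 0 were called between ob/ob vehicle and wild type mice by limma, although Pecam1 (unadjusted p = 0.0302) and Eng (unadjusted p = 0.0415) had an unadjusted p under 0.05. The part of endothelial RNA in the Plat levels was not tested.

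**Figure D2:**
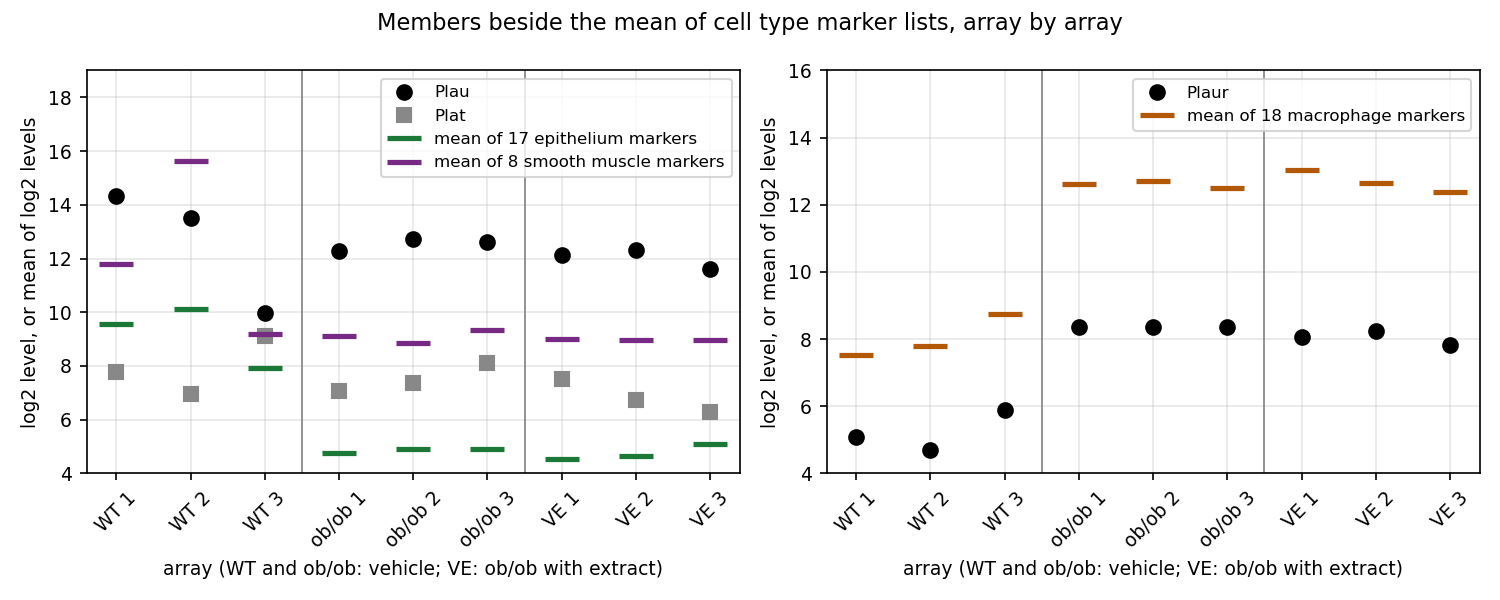
Log2 levels of Plau and Plat with the mean of the epithelium and smooth muscle markers (left) and of Plaur with the mean of the macrophage markers (right), on each of the 9 arrays. Plau is highest on wild type arrays 1 and 2, where the epithelium mean is 9.58 and 10.13, and Plaur is low on the 3 arrays where the macrophage mean is 8.75 or lower.

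Across the lean to obese comparison 1 of the 3 members was called, where 14.1% of the 19572 clusters tested were called (9.02% higher and 5.05% lower). The groups of 1 of the 3 did not overlap, against 28.9% of all clusters (15.7% higher and 13.1% lower). Between VE and wild type mice the same counts were 1 of 3 called, beside 20.0% of clusters (12.4% higher and 7.58% lower), and 1 of 3 without overlap, beside 37.2% (19.5% higher and 17.7% lower). By limma's moderated F test over the 3 groups together, 1 of 3 differed, beside 15.7% of clusters. The member in each case was Plaur, with F adjusted p = 0.000174, against 0.875 for Plau and 0.369 for Plat. On simulated data for the lean to obese comparison, limma recovered 5 of 50 clusters altered 2-fold, 35 of 50 at 4-fold and 49 of 50 at 16-fold. Those clusters were drawn at random with their own spread, so the shares do not carry over to Plau or Plat. The lean SD was 2.31 for Plau and 1.09 for Plat, against a median of 0.41 over all clusters. Larger changes in these genes than in a typical cluster could therefore pass unseen.

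VE was set against vehicle in ob/ob mice to see whether the extract went with a change in these genes. 0 of the 3 members passed, where 0.0255% of clusters did by limma, and 0 of the 3 had an unadjusted p under 0.05. All 3 means were lower in VE mice, at −0.31 ± 0.30 (log2, SE) for Plaur, −0.51 ± 0.88 for Plau and −0.66 ± 0.53 for Plat, each with a limma adjusted p of 1.00. The 95% intervals were −0.99 to 0.36 for Plaur, −2.47 to 1.45 for Plau and −1.84 to 0.53 for Plat. These errors, intervals and p-values use 1 spread shared by all 3 groups, so they include the lean arrays. The lean SD was the largest for each member, at 2.31 for Plau against 0.23 in ob/ob vehicle and 0.37 in VE mice. With only the 2 groups compared in the fit, no member was called either. The 3 VE readings of Plaur, at most 8.25, lay below the 3 ob/ob vehicle readings, at least 8.35, without overlap, as did 6.79% of all clusters in that direction and 5.77% in the other, 12.6% in all. The gap between those nearest arrays is smaller than the spread among the VE arrays, and the 3 ob/ob vehicle readings lay within 0.01 of each other. For Plau and Plat the VE and vehicle arrays overlapped.

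**Figure D3:**
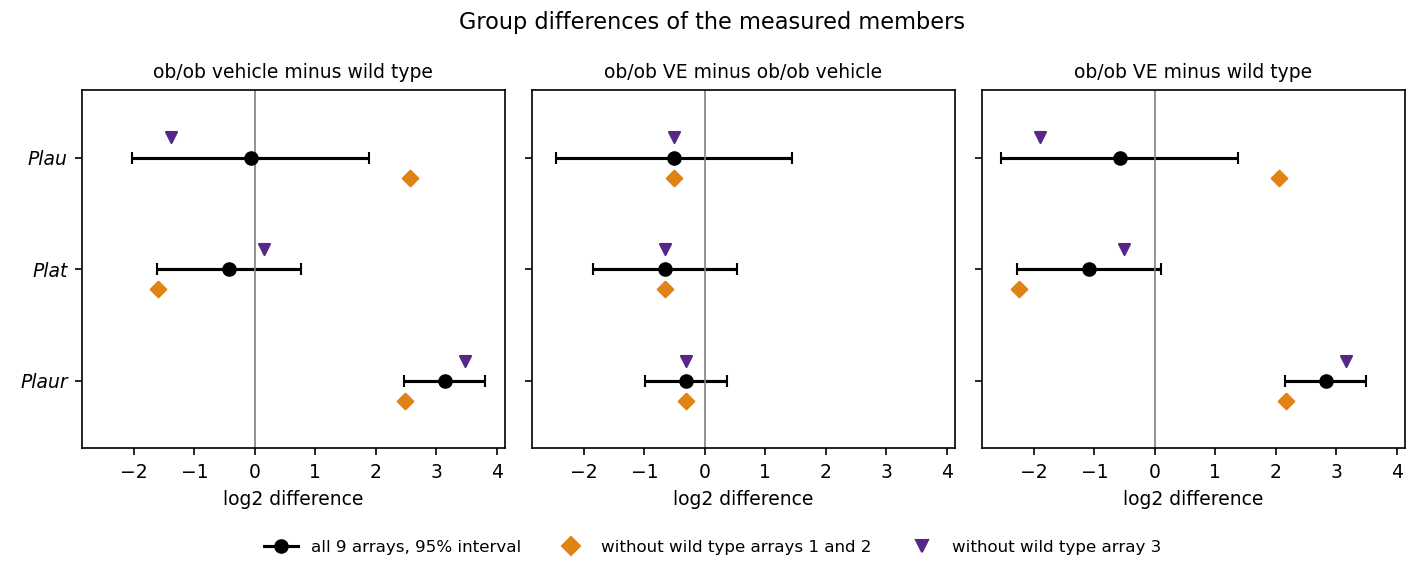
Log2 difference of each measured member in the 3 comparisons, with its 95% interval over all 9 arrays (black), without wild type arrays 1 and 2 (orange) and without wild type array 3 (purple). Plaur stays between 2.16 and 3.47 above wild type, while Plau moves from −1.38 to 2.56 in ob/ob vehicle mice with the lean arrays used.

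The genes with the most similar profiles were found by the root mean square difference over the 9 arrays, in log2 units, after each gene was centred on its own mean. Plaur had the closest neighbours of the 3 members. They were the kinase Nek6 (0.15), the immune receptor kinase Syk (0.19), the lysosomal protease cathepsin B, Ctsb (0.22), Lrp12 (0.25) and Alox5ap (0.25), which encodes the activating protein of leukotriene synthesis, against a median of 1.5 over 18499 genes. Nek6 read 9.04, 8.45 and 9.71 on the lean arrays, 12.19, 12.03 and 12.19 in ob/ob vehicle and 12.27, 12.29 and 11.66 in VE mice. Nek6 thus repeated the low lean readings of Plaur, with array 3 the highest of them, and array 3 the lowest among the VE arrays.

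The nearest profiles of Plau were the ceramidase Acer3 (0.38), Fam78b (0.42), the tubulin Tubb2b (0.48), the organic anion transporter Slco1a6 (0.51) and the cationic amino acid transporter Slc7a1 (0.51), against a median of 1.22. Acer3 read 10.67, 10.10 and 6.41 on the lean arrays, high on arrays 1 and 2 and low on array 3 as Plau was. Those of Plat were the collagen VI chain Col6a6 (0.24), the chemokine Ccl24 (0.27), Phkg1 (0.28), Ribc2 (0.36) and the metalloprotease Adamts12 (0.37), against a median of 0.88. Col6a6 read 6.92, 6.23 and 8.40 on the lean arrays and 6.81, 6.20 and 5.67 on the VE arrays, in the order of Plat within both groups. In untreated ob/ob mice Col6a6 read 6.19, 6.01 and 6.99, with array 2 the lowest, where array 1 was the lowest for Plat. The 9 arrays share 3 groups, so these distances describe likeness only.

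**Figure D4:**
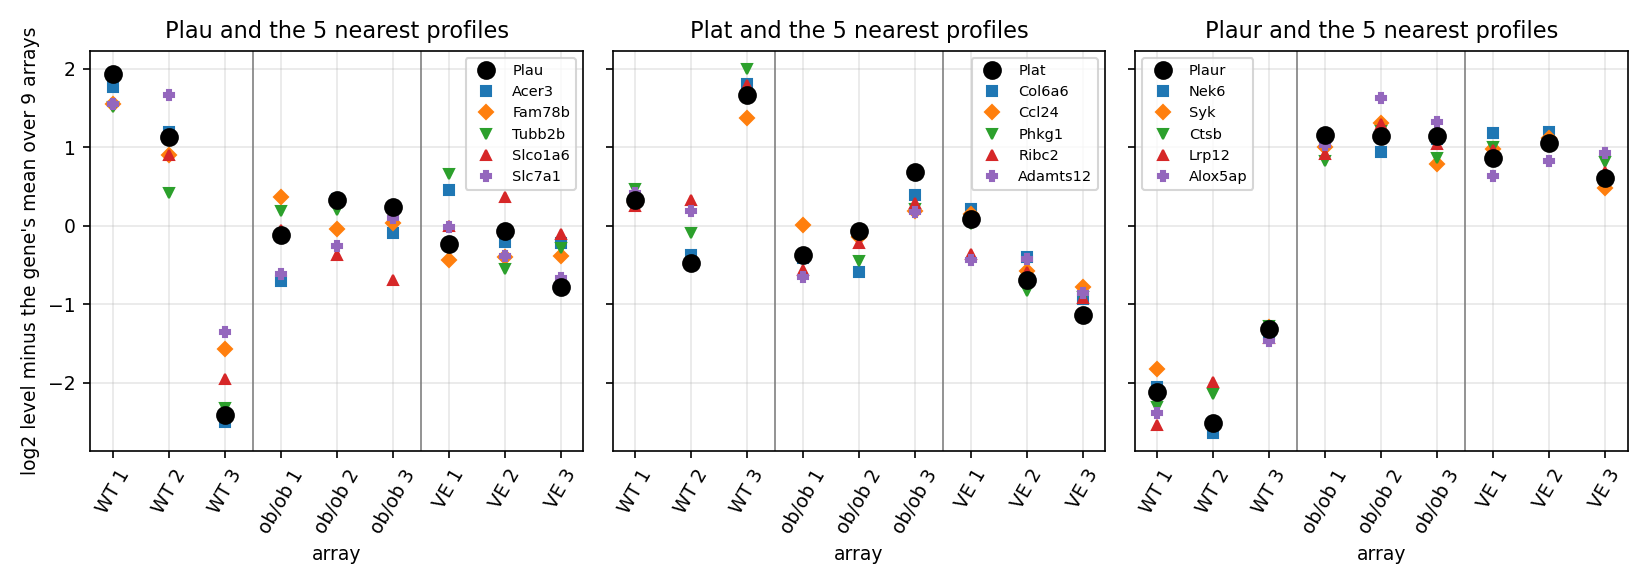
Log2 level minus each gene's mean over the 9 arrays, for Plau, Plat and Plaur (black) and the 5 genes nearest to each (coloured). The Plaur set separates lean from ob/ob arrays, while the Plau set is low and the Plat set high on wild type array 3.

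Of 66 other genes listed around plasminogen activation in 5 groups, 60 were measured. In untreated ob/ob mice 13 were higher and 7 lower than in lean mice, or 33.3%, beside 14.1% of all clusters. Between VE and wild type mice 16 were higher and 8 lower, beside 20.0%. The lists were chosen with earlier results of these data known, so these shares describe the lists and do not test the pathway. Between VE and vehicle 0 of 60 passed by limma and 3 had an unadjusted p under 0.05.

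Among plasminogen and its cell surface receptors, 1 of 4 was higher in ob/ob vehicle mice and 0 were lower, with a median difference of 0.72 beside −0.037 over all clusters. Annexin A2, Anxa2, which binds plasminogen and tissue plasminogen activator at the cell surface, was at 13.62 ± 0.61 (SD, n = 3) in lean and 15.69 ± 0.19 in ob/ob vehicle fat, a rise of 2.07 ± 0.37 (log2, SE; limma adjusted p = 0.00445). Its partner S100a10 (0.41 ± 0.36) and the plasminogen receptor Plgrkt (0.87 ± 0.34) did not pass there, nor did plasminogen itself, Plg (0.56 ± 1.17). In VE mice both S100a10 (1.47 ± 0.36; limma adjusted p = 0.0189) and Plgrkt (1.71 ± 0.34; adjusted p = 0.00646) were higher than in lean fat, and S100a10 was no longer called when wild type array 2, VE array 1 or VE array 3 was dropped (limma adjusted p of 0.0506 to 0.0776) or wild type arrays 1 and 2 were (0.182). Plg read 8.58, 5.23 and 10.18 on the lean arrays, so the proenzyme varied more among lean mice than between the groups.

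Among inhibitors of plasminogen activation or plasmin, 2 of 8 were lower in ob/ob vehicle mice and 0 were higher, with a median of −0.31. This list leaves out Tfpi2, which also blocks plasmin, was higher by 4.07 and is counted with the coagulation genes below. The members that fell were Spint2 (−4.70 ± 0.56, log2, SE; limma adjusted p = 0.00048) and Spint1 (−2.93 ± 0.46; adjusted p = 0.0024), membrane-bound Kunitz inhibitors of epithelial serine proteases rather than inhibitors made for the plasminogen activators alone. Spint2 read 12.73, 13.13 and 10.48 on the lean arrays, high where the epithelium mean was high. Of the 17 epithelium markers, 15 were lower in ob/ob vehicle mice; the part of epithelium in the Spint1 and Spint2 differences was not tested. Without wild type arrays 1 and 2 they stood at −3.07 for Spint2 and −1.77 for Spint1, both called. The histidine-rich glycoprotein Hrg (2.22 ± 1.16) and the neuroserpin gene Serpini1 (−0.47 ± 0.26) did not pass. Neither did Serpinb2, a urokinase inhibitor of macrophages (0.38 ± 0.37), nor Serpina5 (−0.22 ± 0.23). Serpinb2 read 3.54 to 5.23 and Serpina5 3.25 to 4.00, below the array median on every array. So near the low end of the scale, a change in either could be missed. Hrg passed without wild type array 3 (3.38, limma adjusted p = 0.0439). It read 8.10, 5.09 and 10.08 on the lean arrays and averaged 9.97 in ob/ob vehicle mice, so array 3 alone showed no rise.

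Among partners and clearance receptors of the urokinase receptor, 7 of 18 were higher in ob/ob vehicle mice and 1 was lower, with a median of 0.87. Mrc2, a collagen uptake receptor that associates with the urokinase receptor, read 7.53, 7.0 and 7.24 on the lean arrays and averaged 13.17 ± 0.092 (SD, n = 3) in ob/ob vehicle fat. That difference of 5.91 ± 0.30 (log2, SE, with limma adjusted p = 4.89e-06) had the highest t among the genes of the 5 lists around plasminogen activation. The integrin chains Itgb2 (6.80 ± 0.57) and Itgam (4.75 ± 0.43), which together form the Mac-1 integrin of myeloid cells, a partner of the urokinase receptor, were higher too, and so was the fibronectin receptor chain Itga5 (2.82 ± 0.38). Mac-1 is itself a marker of myeloid cells, and the macrophage mean given above moved with both chains. Against wild type array 3 alone, Itgb2 stood at 5.38 and Itgam at 3.78, and 12 of the 18 macrophage markers were called higher. Lypd3 (0.007 ± 0.22) and the growth factor receptor Egfr (0.15 ± 0.46) did not pass. The 1 lower gene, named after its values were seen, was the endocytic receptor Lrp2 at −5.12 ± 1.08. Lrp2 read 6.79, 11.32 and 10.46 on the lean arrays, each of which carried markers of other tissues. It read 4.72, 3.21 and 5.28 in untreated ob/ob mice. The part of epithelium or of those other tissues in the Lrp2 difference was not tested. Its call ended without ob/ob vehicle array 2 (−4.52, limma adjusted p = 0.0546).

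Among genes of coagulation, thrombin and fibrin, 2 of 16 were higher and 2 lower in ob/ob vehicle mice, with a median of 0.92. Tfpi2, a Kunitz inhibitor that also blocks plasmin, was higher by 4.07 ± 0.30 (log2, SE; limma adjusted p = 3.01e-05), from 4.52 ± 0.51 (SD, n = 3) in lean to 8.59 ± 0.29 in ob/ob vehicle fat. Procr, the endothelial protein C receptor, was higher by 1.45 ± 0.30, thrombomodulin, Thbd, was lower at −2.66 ± 0.61, and Tfpi, the inhibitor of the tissue factor pathway, was lower at −1.15 ± 0.28 (limma adjusted p = 0.0233). Fibrinogen alpha, Fga (0.94 ± 1.28), and Serpind1 (0.21 ± 0.86) did not pass. Without wild type arrays 1 and 2 Procr (1.25, limma adjusted p = 0.0912) and Tfpi (−1.07, adjusted p = 0.137) were not called, and Thbd stood at −4.38; the median of the list was then −0.19. The Tfpi call also ended without wild type array 2 or ob/ob vehicle array 1 or 2 (adjusted p of 0.0576 to 0.0967), and that of Thbd without ob/ob vehicle array 2 (−2.56, adjusted p = 0.0666).

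Among targets of plasmin or urokinase, 3 of 14 were higher and 2 lower in ob/ob vehicle mice, with a median of 0.73. Hepatocyte growth factor, Hgf, whose precursor urokinase can cut, was higher by 2.23 ± 0.31 (log2, SE; limma adjusted p = 0.00122), and Tgfb1, whose latent form plasmin can release, by 2.26 ± 0.36 (adjusted p = 0.00241). Against wild type array 3 alone Hgf stood at 1.67 and Tgfb1 at 1.60, both called. The latent TGF beta binding protein Ltbp1 was lower at −1.86 ± 0.41. The gelatinase Mmp9 was called lower too (−1.99 ± 0.41), but it read below the median of its array on all 9 arrays, at 4.23, 5.98 and 5.69 in lean and 3.15 to 3.63 in untreated ob/ob fat, so near the low end of the scale that the size of its difference is uncertain. In the same list Mst1 (−0.18 ± 0.38) and Bdnf (0.36 ± 0.36) did not pass. Bdnf, at 3.38 to 5.19, also read below the array median on all 9 arrays. The third gene that rose, named after its values were seen, was Mmp2 (1.68 ± 0.44); its call ended without wild type array 1 or 2, without both (0.80, limma adjusted p = 0.359), or without ob/ob vehicle array 2 or 3. The Ltbp1 call ended without ob/ob vehicle array 1 or 2 (adjusted p of 0.0528 and 0.0625). Without wild type array 3, 5 of the 14 were higher and 3 lower, with a median of 0.855. The median of the list fell to 0.22 without wild type array 1 and to 0.23 without wild type arrays 1 and 2 together.

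**Figure D5:**
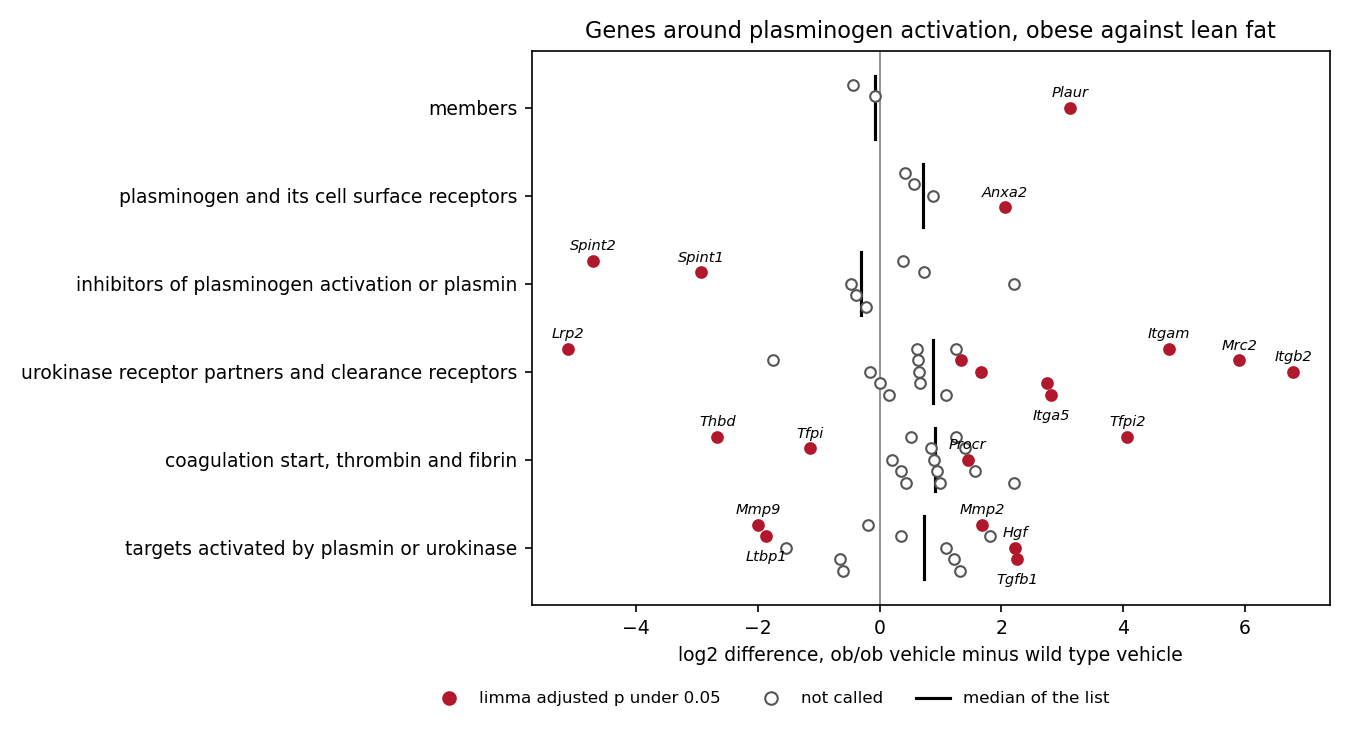
Log2 difference of ob/ob vehicle minus wild type for the 3 measured members and the 60 measured genes of 5 lists around plasminogen activation (filled: limma adjusted p under 0.05; open: not called; bar: median of the list). The partners of the urokinase receptor hold 7 higher genes and 1 lower gene, led by Itgb2 at 6.80 and Mrc2 at 5.91.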

How the data were processed

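White adipose tissue RNA from 9 mice was measured on Clariom S arrays. The deposited table holds log2 values, normalized by the submitters with SST-RMA in Transcriptome Analysis Console 4, per the submitters' processing notes and the series' design text. The genome build was not given in the sources used here. Of 22206 clusters, 19572 carry 1 gene symbol in the platform annotation and 2634 are unnamed. The cluster of highest mean stands for a gene. Values were used as deposited, and no 2 arrays were identical. Arrays have no read depth; their number limits the precision. Detection calls were not used here.

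Means of the 3 groups were fitted over all 9 arrays with limma 3.58.1 in R 4.3.3 (empirical Bayes, prior degrees of freedom 4.02), two-sided, adjusted by Benjamini-Hochberg over 19572 clusters in each of 3 comparisons. The fit was checked on simulated data. The members and lists were chosen with earlier results of these data known. Beside each list, the 4 genes of largest and the 2 of smallest absolute moderated t between ob/ob vehicle and wild type are named, and the 5 genes nearest to each member. Alternatives were other fits, normalizations and filters, and arrays left out; for the lists, leaving arrays out was chosen after seeing the data.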

Additional observations from a re-analysis of the deposited data

How the results depend on the processing

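Plaur kept its call in ob/ob vehicle and in VE mice against wild type under all 18 alternatives, with differences of 2.47 to 3.47 and 2.16 to 3.16. No member was called between VE and vehicle under any of them. Median centring put Plau at 0.02 in ob/ob vehicle against wild type. Without wild type arrays 1 and 2 together, which leaves 1 lean array, Plau was at 2.56 and 2.05 against wild type and Plat in VE mice at −2.25. With each array left out in turn, Plau ranged from −1.38 to 0.79 in ob/ob vehicle and from −1.89 to 0.28 in VE mice, Plat in ob/ob vehicle from −0.92 to 0.15, and 1 to 2 members were called in either comparison with wild type and by the F test; the single array whose loss made Plau called was wild type array 3. The counts over all clusters then ran from 1641 to 3545 in ob/ob vehicle against wild type, from 0 to 21 between VE and vehicle (5 with all arrays) and from 2314 to 4706 in VE against wild type. With only the 2 groups compared, 1814 clusters passed in ob/ob vehicle against wild type (2754 with all arrays), and 19 between VE and vehicle; array weights gave 41 there and the replicate number as a block 0. Same-numbered arrays deviated together weakly (r over clusters from −0.064 to 0.181), and 2 to 3 of 6 arrays per comparison correlated best with their own number, so the numbers were not taken as pairs; the block changed no call of a member. The list counts moved more: in ob/ob vehicle against wild type, with arrays left out singly or wild type 1 and 2 together, partners of the urokinase receptor held 6 to 9 higher and 0 to 2 lower genes, coagulation 1 to 3 and 0 to 2, targets 2 to 5 and 1 to 3, inhibitors 0 to 1 and 2, and plasminogen receptors 1 and 0 throughout. Nothing in the labels says that the samples of a group were processed separately, so the p-values measure the spread between these samples.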

Other observations

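Several plasma proteins of this system that the liver is known to secrete had transcripts that varied widely among the fat samples. Plg read 8.58, 5.23 and 10.18 on the wild type arrays and Fgg, the fibrinogen gamma chain, 12.07, 6.29 and 14.44. Prothrombin, F2, read 8.50, 5.87 and 10.38, and vitronectin, Vtn, which binds the urokinase receptor, 11.55, 8.72 and 13.61. In all 4 genes array 2 was the lowest of the lean arrays and array 3 the highest. On the VE arrays Plg read 7.62, 8.99 and 10.76, Fgg 10.60, 13.13 and 13.82, F2 8.58, 10.24 and 12.44, and Vtn 11.78, 13.01 and 14.69, with array 1 the lowest and array 3 the highest. On the ob/ob vehicle arrays Plg (7.37, 9.46 and 8.85), F2 (8.69, 10.46 and 9.79) and Vtn (12.15, 12.56 and 12.43) were highest on array 2, and Fgg (11.54, 13.76 and 14.14) on array 3. Plaur had the same order as these genes on the lean arrays, with array 2 the lowest and array 3 the highest, and another order on the VE arrays, where array 3 was the lowest. These genes were chosen after their values were seen.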
